A study of Mus musculus with 3 samples.

Results

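A set of 8 genes of apoptosis, necroptosis and cellular stress was followed in mouse retina at postnatal day 12: Casp8, Ripk3, Trp53, Bbc3, Bcl2l11, Bax, Ddit3 and Atf3. They were taken as every array probe whose RefSeq accession belongs to 1 of these genes, which gave 9 probes of the 28329 that carry a gene symbol, and 8 genes of 21366. The series holds 1 array labelled Otx2 KI, 1 labelled Crx KO and 1 of wild-type retina, all of the same age and with no treatment named. Crx and Otx2 both encode homeodomain transcription factors that act in photoreceptors and are closely related. KI and KO are the usual short forms for knock-in and knockout, but where Otx2 was inserted, which part of Crx was removed, the strain and any pooling of retinas are not in the labels. No genotype was repeated, so no test was possible and every difference below describes these 3 RNA preparations.

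Apoptosis runs along a mitochondrial and a receptor route. In the mitochondrial route, BH3-only proteins such as those of Bbc3 (PUMA) and Bcl2l11 (BIM) release the pore-forming protein BAX, cytochrome c leaves the mitochondrion, and caspases are activated. In the receptor route, caspase 8 is the first caspase to act; it also holds back necroptosis, the lytic death that the kinase RIPK3 starts. Trp53 encodes p53, which induces Bbc3 and Bax after DNA damage. Ddit3 (CHOP) and Atf3 encode bZIP transcription factors that are induced when protein folding or amino acid supply is disturbed. Death of neurons and of photoreceptors is known both in normal retinal development and in inherited retinal degeneration.

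The promoters of 4 members are shown because they differ in the stress motifs they hold and because 2 of the genes, Trp53 and Atf3, were about 2-fold apart from wild-type on both mutant arrays. The sequences are RefSeq windows of GRCm38.p6 from 250 bases before to 50 bases after the annotated start, written along the gene's own strand. All 8 members had at least 1 window, 11 windows in all. Capitals mark matches, on either strand, to TAATCC (the core bound by Crx and Otx2), TGATGNAA (a composite of ATF and C/EBP factors), TNACGTCA (a variant of the cyclic AMP response element), TGACTCA (the AP-1 element) or the p53 half-site.
Atf3 promoter, chr1:191183284-191183583, strand -: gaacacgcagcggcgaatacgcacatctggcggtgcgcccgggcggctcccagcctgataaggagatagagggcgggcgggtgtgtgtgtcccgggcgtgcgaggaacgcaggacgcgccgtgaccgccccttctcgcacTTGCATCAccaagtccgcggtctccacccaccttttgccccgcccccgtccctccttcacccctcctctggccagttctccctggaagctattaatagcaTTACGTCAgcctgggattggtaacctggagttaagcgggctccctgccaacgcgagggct
Trp53 promoter, chr11:69580109-69580408, strand +: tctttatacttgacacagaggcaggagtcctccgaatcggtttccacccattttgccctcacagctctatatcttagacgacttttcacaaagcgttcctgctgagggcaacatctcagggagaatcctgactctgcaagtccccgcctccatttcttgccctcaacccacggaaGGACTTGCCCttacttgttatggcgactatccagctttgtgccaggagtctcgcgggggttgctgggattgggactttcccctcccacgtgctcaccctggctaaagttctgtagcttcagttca
Ddit3 promoter, chr10:127290543-127290842, strand +: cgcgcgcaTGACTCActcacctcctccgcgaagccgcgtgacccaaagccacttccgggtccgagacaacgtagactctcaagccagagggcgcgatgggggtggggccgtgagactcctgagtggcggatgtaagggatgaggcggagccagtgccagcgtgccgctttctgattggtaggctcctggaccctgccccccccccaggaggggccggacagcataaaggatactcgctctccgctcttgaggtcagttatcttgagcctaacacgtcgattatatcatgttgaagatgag
Bax promoter, chr7:45466849-45467148, strand -: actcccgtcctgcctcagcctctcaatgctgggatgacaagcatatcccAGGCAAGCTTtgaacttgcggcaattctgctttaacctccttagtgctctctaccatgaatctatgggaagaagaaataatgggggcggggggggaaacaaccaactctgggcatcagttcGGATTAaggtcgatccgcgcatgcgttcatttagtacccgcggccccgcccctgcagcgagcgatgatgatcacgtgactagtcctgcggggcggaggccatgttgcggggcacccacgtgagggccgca

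The Atf3 window held 1 match to the ATF and C/EBP composite, which begins at -110 from the start, and 1 match to TNACGTCA at -10. These letters occurred in 3.97% and 2.93% of 32851 promoter windows of this length. The Ddit3 window held TGACTCA at -242, found in 5.20% of windows. The Trp53 window held a p53 half-site at -75, and the Bax window held another at -201. The half-site occurred in 8.36% of windows. Bax was also the 1 member whose window held TAATCC, at -80, against 7.06% of windows. No match was found in the windows of Casp8, Ripk3, Bbc3 and Bcl2l11. The motifs were chosen with the windows in view, no 2 matches overlapped, and a match describes letters, not a bound site.

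On the Otx2 KI, Crx KO and wild-type arrays, the share of non-control spots well above background was 63.5%, 67.1% and 66.6% (of 59305 each), with 0 saturated. Values are given as scaled signal, the scanner's background-subtracted intensity set to the wild-type array by the 75th percentile. The error after ± is the scanner software's own error model, which covers the measurement of a spot and not the spread between mice. A difference was called by its size only, from 2-fold upward, which is 1 on the log2 scale. The genes that the genotypes are named for were read first. Crx gave 1062 in Otx2 KI and 7177 in Crx KO, against 9790.3 in wild-type, so it was 9.22-fold and 1.36-fold lower. Otx2 gave 63860.1 and 62981, against 40886 (1.56-fold and 1.54-fold higher). The position of the Crx probe relative to the deletion is unknown here. The Crx KO label therefore stays unchecked by this gene, and the arrays are called by their labels throughout. The retina label could be checked against marker genes. All 9 rod and cone markers were well above background in wild-type, and their summed scaled signal was 92187 in Otx2 KI and 94228 in Crx KO, against 432012 in wild-type. In bulk tissue, fewer cells of a type and less RNA per cell cannot be told apart.

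Across the 8 genes most differences were small. In Otx2 KI 1 of 8 measured genes was 2-fold or more from wild-type, the lower Atf3, where 3.88% of all 15809 measured genes were past 2-fold in either direction (1.35% higher and 2.53% lower). In Crx KO 2 of 7 were, Trp53 higher and Atf3 lower, where 5.38% of 16050 genes were past it (1.95% higher and 3.43% lower). Between Otx2 KI and Crx KO 0 of 7 were, where 1.32% of 15806 genes were (0.677% higher and 0.645% lower). At 1.5-fold 3, 2 and 0 members passed in the 3 comparisons, beside 10.0%, 13.3% and 4.75% of all genes. The median log2 difference of the members was 0.22 in Otx2 KI against wild-type (0.03 over all measured genes), 0.13 in Crx KO against wild-type (-0.01 over all) and -0.08 in Otx2 KI against Crx KO (0.04 over all). Both mutant comparisons use the same wild-type array, so a deviation of that array enters both. With a background correction named normexp, 0 of the members were past 2-fold in any comparison. It was run with 50 added to every spot, which by itself shrinks the differences of dim spots.

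**Figure D1:**
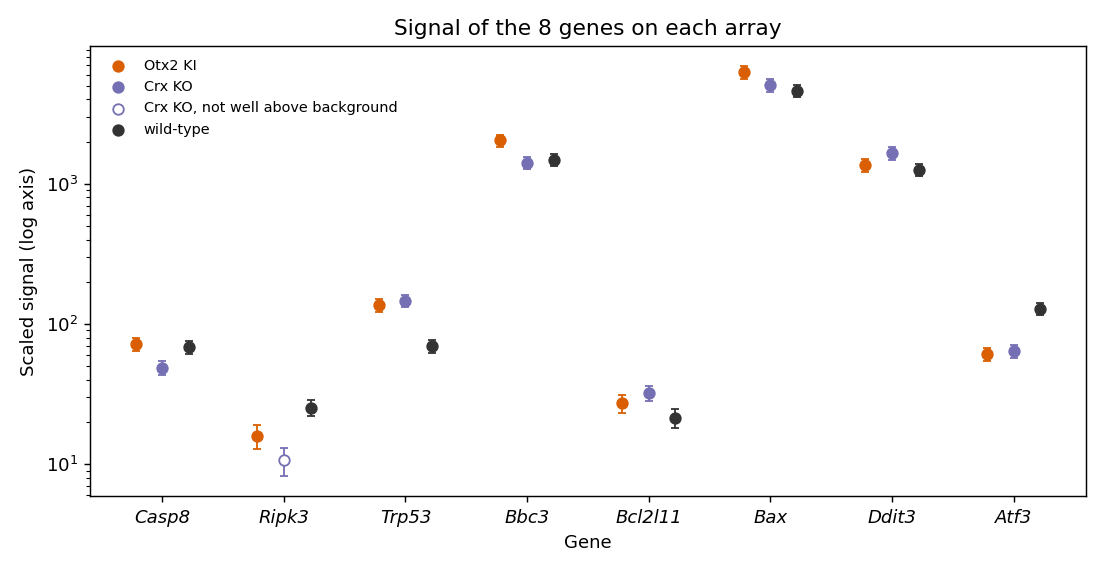
Scaled signal (log axis) of each of the 8 genes on the Otx2 KI, Crx KO and wild-type arrays, 1 point per array, with bars for the scanner error model; the open point is not well above background. Trp53 lies higher on both mutant arrays (136 and 147) than in wild-type (69.7), and Atf3 lower (60.9 and 64.3, against 129).

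Trp53, which encodes the tumour suppressor and stress-activated transcription factor p53, was the member with the largest increase. Its probe A_55_P1968068, of NM_011640, read 136 ± 13.9 in Otx2 KI and 147 ± 14.9 in Crx KO, against 69.7 ± 7.33 in wild-type. Both mutant arrays thus stood well above the wild-type array and close to each other. The log2 difference from wild-type was 0.96 ± 0.21 in Otx2 KI, just under 2-fold (1.95-fold), and 1.08 ± 0.21 in Crx KO (2.11-fold), and Otx2 KI minus Crx KO was -0.12 ± 0.21. This probe is printed at 2 spots, which allows a check within each array. The first spot gave 133 in Otx2 KI and 134 in Crx KO, against 66.9 in wild-type. The second gave 139 and 161, against 72.6. Both spots put both mutant arrays above wild-type, with log2 differences of 0.99 and 0.94 in Otx2 KI and of 1.01 and 1.15 in Crx KO. A gain at least this large was seen for 1.43% of measured genes in Otx2 KI and 1.73% in Crx KO, and for 1.90% and 2.74% of genes in the same, lowest, of 4 equal classes of signal. With normexp the differences were 0.63 and 0.64, and with arrays centred on their medians the Otx2 KI difference was 1.01.

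The p53 target genes Bbc3 and Bax stood less far from wild-type, with no difference at 2-fold. Bbc3, whose product PUMA binds and inhibits the BCL2 survival proteins (probe A_51_P248122 of NM_133234), read 2037 ± 204 in Otx2 KI and 1415 ± 141 in Crx KO, against 1478 ± 148 in wild-type. Only the Otx2 KI array was apart, by 0.46 ± 0.20 on the log2 scale (1.38-fold), while Crx KO differed from wild-type by -0.06 ± 0.20. Otx2 KI minus Crx KO was 0.53 ± 0.20 (1.44-fold). Bbc3 lies on chromosome 7, close to Crx itself: 13 of the 1275 genes measured on that chromosome on all 3 arrays lie between them in the gene order of GRCm38.p6. Its signal in Crx KO was 1.04-fold lower than in wild-type.

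Bax, the pore-forming effector of the mitochondrial route (probe A_55_P2137406 of NM_007527), read 6249.8 ± 625 in Otx2 KI and 5041 ± 504 in Crx KO, against 4592 ± 459 in wild-type. Otx2 KI was again the highest array, and the differences were small: 0.44 ± 0.20 in Otx2 KI (1.36-fold) and 0.13 ± 0.20 in Crx KO (1.10-fold). Bax is on chromosome 7 as well, but 422 measured genes away from Crx. Bcl2l11, which encodes the BH3-only protein BIM, was dim on every array: probe A_51_P484880 read 27.3 ± 4.14 in Otx2 KI and 32.1 ± 4.06 in Crx KO, against 21.5 ± 3.37 in wild-type. Both mutant arrays were above wild-type, by 0.34 ± 0.31 and 0.58 ± 0.29 on the log2 scale, which is about 1 and 2 times the measurement error. With normexp the 2 differences were 0.08 and 0.09. The other Bcl2l11 probe, A_52_P348214, was not well above background on any array and gives no fold.

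Casp8, the initiator caspase of death receptors (probe A_51_P247799 of NM_009812), read 71.6 ± 7.88 in Otx2 KI and 49.0 ± 5.55 in Crx KO, against 68.5 ± 7.35 in wild-type. Here it was Crx KO that lay apart, 0.48 lower than wild-type on the log2 scale (-0.48 ± 0.23, 1.40-fold), while Otx2 KI differed from wild-type by 0.06 ± 0.22. Otx2 KI minus Crx KO was 0.55 ± 0.23 (1.46-fold). Most markers of microglia and macrophages had the same direction. In Crx KO 7 of 10 were lower than in wild-type (median -0.26), where 8268 of all 16050 measured genes were (median -0.01). For 7 of 10 markers the Otx2 KI value exceeded the Crx KO value (median 0.47), as for 9429 of all 15806 measured genes (median 0.04). All 10 were well above background on the 3 arrays, and their summed scaled signal was 31749.7 in Otx2 KI and 30642 in Crx KO, against 24392 in wild-type. For Crx KO against wild-type the sum thus goes the other way from the median. Itgam makes up most of it (23536 in Otx2 KI and 24619 in Crx KO, against 16837 in wild-type). The 3 probes of Itgam ranged between -0.29 and 0.48 in Otx2 KI and between -0.24 and 0.55 in Crx KO, so they did not share a direction. The part of microglia in the Casp8 difference was not tested.

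Ripk3, the kinase that starts necroptosis, gave a signal close to background. It read 16.0 ± 3.08 in Otx2 KI and 10.7 ± 2.40 in Crx KO, against 25.3 ± 3.32 in wild-type. Only the Otx2 KI and wild-type spots were well above background, so Ripk3 was not well above background in Crx KO and has only a bound there. It was 1.58-fold lower in Otx2 KI (-0.66 ± 0.34). In Crx KO the bound was 2.37-fold lower (-1.24 ± 0.37). This bound equals the dim spot's own difference, so a smaller fold, also below 2-fold, lies within the measurement error. With such bounds included, 4.05% of 16782 genes were at least 2-fold lower in Crx KO. With normexp the Otx2 KI difference was -0.06, so its size depends on the processing. That setting both removes background in another way and adds 50 to every spot, and the 2 effects were not separated. In Otx2 KI 9 of the 10 microglia and macrophage markers were above wild-type (median 0.18), where 8747 of 15809 genes were. In Crx KO 7 of the 10 were below it (median -0.26), where 8268 of 16050 genes were. The part of microglia in the Ripk3 differences was not tested.

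Of the stress-induced transcription factors, Atf3 was lower on both mutant arrays. It read 60.9 ± 6.80 in Otx2 KI and 64.3 ± 6.86 in Crx KO, against 129 ± 13.1 in wild-type. Both mutant arrays were near the 2-fold threshold below wild-type, at -1.08 ± 0.22 (2.12-fold lower) and -1.0 ± 0.21 (2.01-fold lower), and they differed from each other by -0.08 ± 0.22. The raw spot medians were 90.5, 88.0 and 160.0 over local backgrounds of 47.0, 39.0 and 51.5 in Otx2 KI, Crx KO and wild-type. With normexp the differences were -0.64 and -0.66, so both kept their direction and fell short of 2-fold. A decrease at least as large was seen for 2.22% of measured genes in Otx2 KI and 3.41% in Crx KO.

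Ddit3, which encodes CHOP (probe A_52_P533146 of NM_007837), read 1358 ± 136 in Otx2 KI and 1653 ± 165 in Crx KO, against 1261 ± 126 in wild-type. Crx KO was highest, by 0.39 ± 0.20 over wild-type (1.31-fold), and Otx2 KI differed from wild-type by 0.11 ± 0.20. Ddit3 was far brighter than its background, and its differences were nearly the same with normexp, at 0.12 in Otx2 KI and 0.39 in Crx KO.

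**Figure D2:**
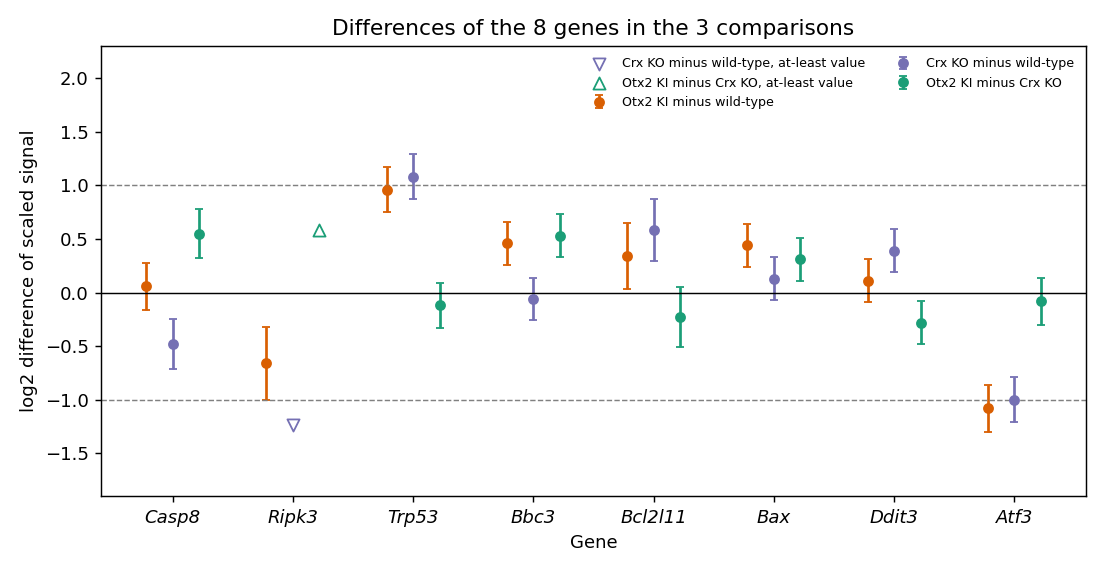
Log2 difference of scaled signal for each gene in Otx2 KI minus wild-type, Crx KO minus wild-type and Otx2 KI minus Crx KO, with bars for the scanner error model of the difference and dashed lines at 2-fold; open triangles are at-least values. Trp53 (0.96 and 1.08) and Atf3 (-1.08 and -1.0) stand near the dashed lines in both mutant comparisons, while the differences of Bbc3, Bax, Ddit3 and Casp8 lie between -0.48 and 0.55.

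The genes whose pair of differences from wild-type lay nearest to those of Atf3 and Trp53 were looked up by Euclidean distance on the log2 scale. This used 14838 of the 15743 genes well above background on all 3 arrays, since clone and predicted-model names were left out. For Atf3 these were Mrgprf (-1.10 in Otx2 KI and -1.01 in Crx KO, distance 0.018), the vesicular glutamate transporter gene Slc17a7 (-1.09 and -0.97, distance 0.033) and Pias3 (-1.06 and -0.98, distance 0.039). For Trp53 they were Olfml3 (0.96 and 1.09, distance 0.011), the complexin gene Cplx3 (0.98 and 1.08, distance 0.016) and Ldb1 (0.98 and 1.05, distance 0.032). With 3 arrays such neighbours are common: 100 genes lay within 0.2 of Atf3 and 46 within 0.2 of Trp53.

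The members were then set beside 172 other genes of the same pathways, in 10 lists. In Otx2 KI 2 of the 157 measured were 2-fold or more higher than wild-type and 7 lower (5.73%), and in Crx KO 4 of 162 were higher and 8 lower (7.41%). Beside them stand 3.88% and 5.38% of all genes. The medians over the lists together were 0.01 and -0.02, against 0.03 and -0.01 over all genes.

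In the list of apoptosome and executioner caspase genes, 0 of 18 measured were past 2-fold in either mutant array. For 18 genes this is close to the 3.88% and 5.38% of all genes. At 1.5-fold 1 passed in Otx2 KI and 3 in Crx KO, beside 10.0% and 13.3% of all genes. The medians were -0.04 in Otx2 KI and -0.13 in Crx KO. Below wild-type were 10 of the 18 in Otx2 KI and 14 in Crx KO, where 7062 of 15809 and 8268 of 16050 genes were. Xiap, a caspase inhibitor, read 7544 and 7748, against 12667 in wild-type, which is 1.68-fold and 1.63-fold lower. Casp9 was at 0.30 and 0.31 on the log2 scale, while Birc5, the survivin gene, was at -0.01 and -0.65. Among 5 measured anti-apoptotic BCL2 genes, 0 were past 2-fold from wild-type. Bcl2 stood at 0.25 and 0.46, Bcl2l2 at -0.25 and -0.00, and Mcl1 at 0.06 and -0.03. Bcl2l10, which is well above background only in wild-type, was at least 3.06-fold lower in Otx2 KI and at least 4.56-fold lower in Crx KO. In Otx2 KI, 2.97% of 16429 genes were at least 2-fold lower with such bounds included.

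Bmf, a BH3-only gene like Bbc3 and Bcl2l11, read 1568 in Otx2 KI and 1012 in Crx KO, against 2208 in wild-type. It was the 1 of 10 measured pro-apoptotic BCL2 genes past 2-fold, at -1.13 ± 0.20 in Crx KO, and stood at -0.49 ± 0.20 in Otx2 KI. Hrk, another BH3-only gene, was at 0.71 and 0.45, and Pmaip1 (NOXA) at -0.25 and -0.29. The BH3-only genes thus went different ways on the same arrays. Bcl2a1d, an anti-apoptotic family member expressed in leukocytes, differed by 2.29-fold between the mutant arrays, with Otx2 KI the higher (116 and 50.6, with 96.1 in wild-type). With normexp that log2 difference was 0.68, against 1.20 as reported, which is below 2-fold. It belongs to a cluster of near-identical genes, so its probe may read several of them.

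Ripk1, the kinase upstream of Ripk3, read 69.7 in Otx2 KI and 71.6 in Crx KO, against 74.2 in wild-type. Mlkl, which encodes the pore-forming target of RIPK3, read 50.2 and 46.7, against 50.8. In the necroptosis and inflammatory death list 0 of 12 and 0 of 14 measured genes were past 2-fold, with medians of -0.09 and -0.15. The inflammatory caspase gene Casp4 was at -0.46 and -0.62 and the inflammasome sensor gene Nlrp3 at 0.39 and 0.68. Both are dim, and with normexp Casp4 was at -0.05 and -0.13 and Nlrp3 at 0.12 and 0.21. Pycard was at -0.07 and -0.52, Il18 at -0.55 and -0.02, and Ticam1 at -0.64 and -0.23. In the death receptor list 1 of 12 and 1 of 14 were, and in both cases it was Tnfaip3, which encodes the ubiquitin-editing protein A20. Tnfaip3 read 749 in Otx2 KI and 931 in Crx KO, against 5863 in wild-type, which is 7.83-fold (-2.97 ± 0.20) and 6.29-fold (-2.65 ± 0.20) lower. This was the largest difference from wild-type among the measured genes of the 10 lists in Otx2 KI. The death ligand gene Tnfsf10 (TRAIL) was at -0.88 and -0.83, or at -0.30 and -0.39 with normexp, and Cflar, which encodes the caspase 8 inhibitor FLIP, at -0.23 and -0.46. Tnfrsf25 was at -0.34 and 0.07. The TNF receptor gene Tnfrsf1b, dim on both mutant arrays, was 2.05-fold lower in Crx KO by its dim spot (-1.03 ± 0.46). A smaller fold lies within that error.

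Regulators and targets of p53 did not move as a group with Trp53. Of 21 measured, Otx2 KI had 1 above and 3 below wild-type past the 2-fold threshold (19.0%, beside 3.88% of all genes). Crx KO had 1 above and 2 below (14.3%, beside 5.38%). The medians were 0.03 and 0.02. Mdm2, a p53 target that also degrades p53, read 9112 and 9082, against 8932 in wild-type. Cdkn1a, the p21 gene, stood at 0.28 and 0.21. Btg2, an antiproliferative target, read 5701 in Otx2 KI and 5418 in Crx KO, against 2544 in wild-type (2.24-fold and 2.13-fold higher).

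Counted by sign, 13 of the 21 were above wild-type and 8 below on each mutant array. Over all genes 8747 of 15809 in Otx2 KI and 7782 of 16050 in Crx KO were above it. Among the list genes above wild-type were the stress-induced Sesn2 (0.60 in Otx2 KI and 0.40 in Crx KO), Sesn1 (0.39 and 0.41) and Phlda3 (0.48 and 0.32). Tigar, Gdf15 and Gadd45a were lower on both mutant arrays. Tigar, a regulator of glycolysis, read 1404 and 1249, against 3634 in wild-type (2.59-fold and 2.91-fold lower, with its other probe at -1.30 and -1.52). Gdf15, a secreted stress cytokine, read 45.9 and 40.4, against 177 in wild-type (3.85-fold and 4.38-fold lower, or -1.07 and -1.23 on the log2 scale with normexp). Gadd45a, a growth arrest gene, was 2.20-fold lower in Otx2 KI and 1.87-fold lower in Crx KO.

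In the list of the unfolded protein and integrated stress response, to which Ddit3 and Atf3 belong by function, 1 of 27 genes was past 2-fold on each mutant array, with medians of 0.04 and -0.01. It was Trib3, a pseudokinase gene induced by CHOP and ATF4, which read 213 in Otx2 KI and 239.9 in Crx KO, against 1117 in wild-type (5.24-fold and 4.66-fold lower). Eif2ak3, which encodes the kinase PERK, was at 0.25 and 0.53. Atf4, the factor upstream of Ddit3 and Atf3, was at -0.43 and -0.34. Ppp1r15a, another gene of this response, was at -0.64 and -0.70, while the endoplasmic reticulum chaperone gene Hspa5 was at -0.08 and -0.10. Low Trib3 and Atf3 values thus stood beside Ddit3 values at or above wild-type. Asns (0.31 and 0.49), Atf5 (0.27 and 0.51), Chac1 (0.27 and 0.35) and Herpud1 (0.25 and 0.31) of this list were also above wild-type. By sign, 15 of the 27 were above it and 12 below in Otx2 KI, and 13 and 14 in Crx KO. Over all genes 8747 of 15809 and 7782 of 16050 were above it.

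Heat shock and oxidative stress genes held 1 of 21 past 2-fold in Otx2 KI and 2 of 21 in Crx KO. Hspa1a, an inducible HSP70 gene with a near-identical neighbour, read 133 and 215, against 731 in wild-type (5.51-fold and 3.40-fold lower). Gpx4, which protects membrane lipids from peroxidation, read 27949 and 24247, against 54517 in wild-type, and was 1.95-fold and 2.25-fold lower. The catalase gene Cat was at 0.58 and 0.65 by its brighter probe and at 0.05 and 0.16 by the other.

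Atf3 is itself an immediate early gene and its protein pairs with JUN, so the list of AP-1 genes and stress kinase partners is given beside it. Of 17 measured, 13 were above wild-type on each mutant array, with medians of 0.12 and 0.10, where 8747 of 15809 genes in Otx2 KI and 7782 of 16050 in Crx KO were above it. Several of the 13 were close to no difference, such as Mapk8 (0.01 and 0.10) and Mapk10 (0.02 and 0.09). Dusp1, a MAP kinase phosphatase, was 2.73-fold and 2.81-fold higher. Fos read 718 in Otx2 KI and 1169 in Crx KO, against 482 in wild-type (1.49-fold and 2.43-fold higher), and Junb was 1.69-fold and 1.95-fold higher (0.27 and 0.50 on the log2 scale with normexp). Jun was 1.39-fold and 1.42-fold higher. Genes of the retinal injury response differed singly. Lcn2, an acute phase gene, was 4.32-fold and 3.90-fold lower (-1.35 and -1.33 on the log2 scale with normexp), and Serpina3n, a marker of reactive glia, read 13.9 in Otx2 KI and 140.3 in Crx KO, against 13.9 in wild-type. It was 10.1-fold higher in Crx KO, or 1.46 on the log2 scale with normexp. Gfap, the intermediate filament of reactive glia, was at 0.27 and 0.53, Socs3 at -0.68 and 0.01, and Cebpd at 0.48 and 0.40. Edn2, a gene known to be induced in injured photoreceptors, was not well above background on any array.

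**Figure D3:**
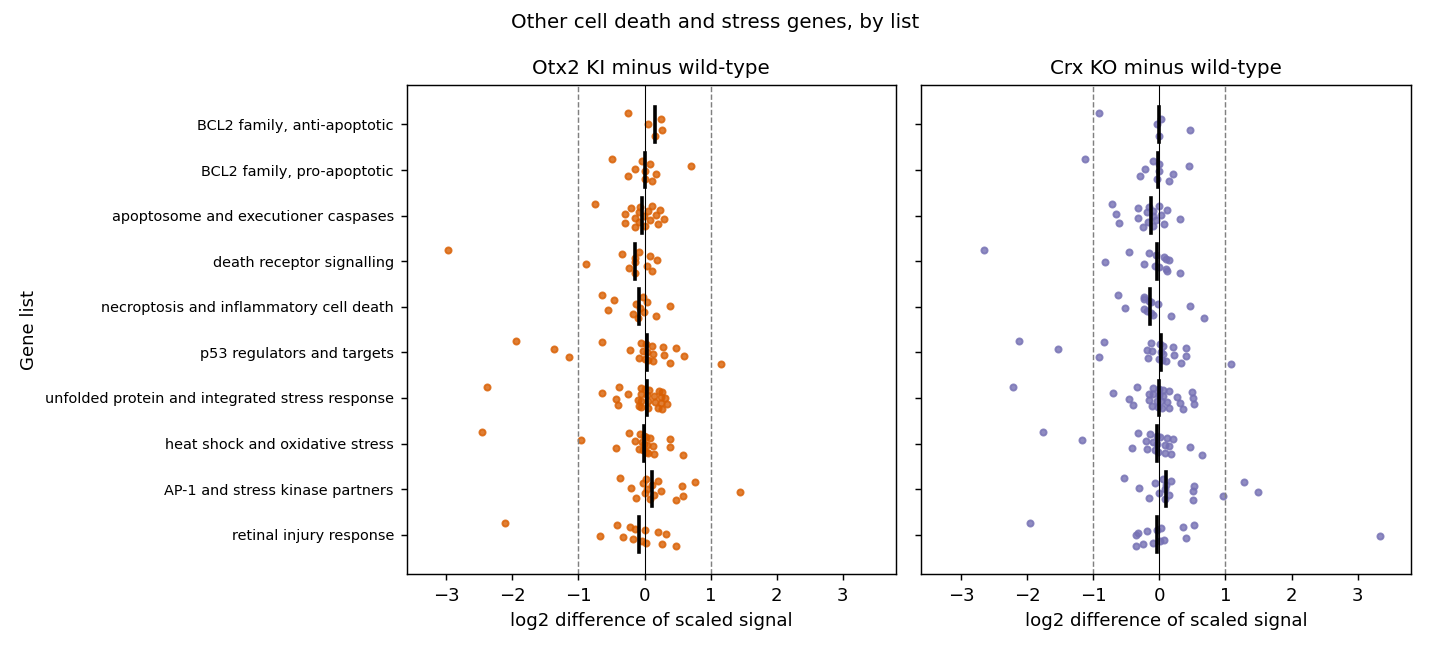
Log2 difference of scaled signal for the measured genes of 10 further cell death and stress lists in Otx2 KI minus wild-type (left) and Crx KO minus wild-type (right), 1 point per gene, with a black bar at each list's median and dashed lines at 2-fold. List medians lie between -0.15 and 0.16, and the points far to the left include Tnfaip3 (-2.97 and -2.65), Trib3 (-2.39 and -2.22) and Hspa1a (-2.46 and -1.76).

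Markers of several cell types also differed between the arrays that these values come from. Of 8 rod and cone markers measured on both arrays, 6 in Otx2 KI and 7 in Crx KO were 2-fold or more lower than wild-type, with medians of -4.74 and -3.95. Of 9 pigment epithelium and melanocyte markers, 2 and 7 were, with medians of -0.90 and -1.63 and a summed scaled signal of 11849.7 in Otx2 KI and 7716 in Crx KO, against 23365.5 in wild-type. Bipolar (-0.18 and -0.07), amacrine and horizontal (0.01 and 0.01), ganglion cell (0.08 and 0.18) and Muller glia (0.11 and 0.24) medians were near 0, with 0 markers past 2-fold. Lens markers were 2-fold or more higher for 3 of 6 measured in Otx2 KI (median 0.93) and for 0 of 5 in Crx KO (median -0.72). Of the vessel and pericyte markers 7 of 8 were below wild-type on each mutant array (medians -0.24 and -0.43), and all 3 measured blood markers were (medians -0.66 and -0.52), with 0 past 2-fold in these lists. The part of these shifts in the differences of Trp53, Atf3 and the genes listed with them was not tested.

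**Figure D4:**
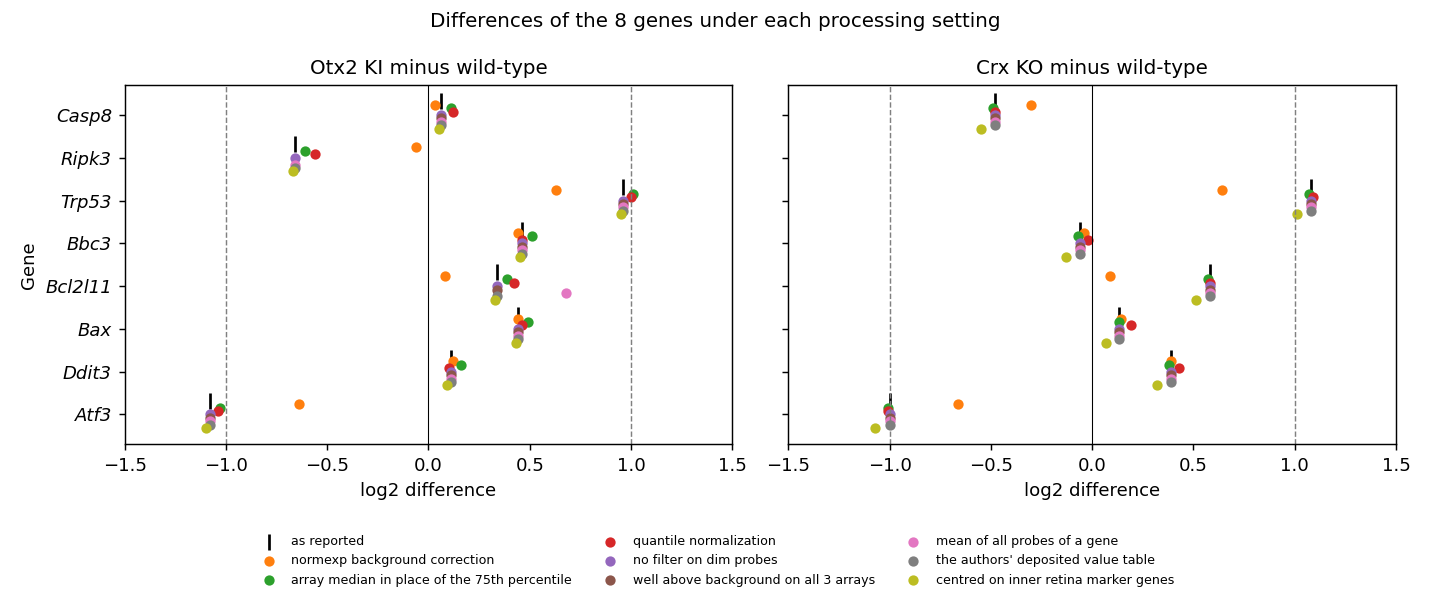
Log2 difference of each of the 8 genes from wild-type in Otx2 KI (left) and Crx KO (right) under the reported setting (black tick) and 8 alternatives (coloured points), with dashed lines at 2-fold. Under normexp the dim genes Trp53 (0.63 and 0.64), Atf3 (-0.64 and -0.66), Bcl2l11 (0.08 and 0.09) and Ripk3 (-0.06 in Otx2 KI) lie closer to 0, while Bax, Bbc3 and Ddit3 hardly move.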

How the data were processed

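RNA of 3 retinas or retina pools (1 per genotype, postnatal day 12) was labelled with Cy3 and hybridised to 1-colour Agilent arrays, per the labels' protocols. The deposited scanner files hold intensity values written by Agilent Feature Extraction 12.0.3.1, per the file headers, which name the build mm9. The 3 arrays share 1 slide and 1 scan, so position on the slide and genotype cannot be told apart. The authors' deposited value table holds the same intensity times 1 constant per array (2.54 for Otx2 KI, 2.61 for Crx KO and 2.49 for wild-type); the sources used here do not give the basis of the constants.

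From there, control spots and spots marked as outliers (132, 126 and 136) were left out, spots of a probe were averaged, and log2 processed signal was reduced by each array's 75th percentile over non-control spots. Accessions were matched without versions to RefSeq genes of GRCm38.p6, which named 50.9% of 55675 probes. A gene was read from its probe with the highest mean signal, and counted as measured when both arrays of a comparison were well above background. Where 1 array was dim, an at-least fold was taken against the dim probe's own signal or, if higher, that array's lowest signal well above background (12.4 in Otx2 KI, 8.33 in Crx KO and 10.2 in wild-type). An at-least fold still carries the measurement error of the spots, so the true fold can be smaller. With 1 array per genotype no test was run, and the number of arrays limits the precision. The members and lists were chosen with earlier results of these data known. Pathway genes were named by rule (up to 3 per list with the largest difference from wild-type on each mutant array, and all at 2-fold or more), some of which are not reported here; Ripk1, Mlkl, Mdm2, Cdkn1a, Hspa5, Jun, Mapk8, Mapk10, Sesn1, Sesn2, Phlda3, Edn2, Bcl2l10, Tnfrsf1b, Itgam, Crx and Otx2 were named after their values were seen. Alternatives were normexp background correction with offset 50 on spot medians (the files hold no spot means), median and quantile normalization, no dim filter, a filter on all 3 arrays, averaged probes, the deposited table, 1.5-fold, and, chosen after seeing the data, centring on inner retina markers. The calling of genes was tried on simulated probe values with shifts well beyond the threshold. That trial did not cover background removal, normalization or differences near 2-fold. Python 3.11.15, numpy 2.4.6, pandas 2.3.3, R 4.3.3 and limma 3.58.1 were used.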

Additional observations from a re-analysis of the deposited data

How the results depend on the processing

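The counts of members at 2-fold or more (1 in Otx2 KI against wild-type, 2 in Crx KO against wild-type and 0 between the mutant arrays) rested on dim probes. With normexp they were 0, 0 and 0, and with arrays centred on their medians 2 members passed in Otx2 KI. At 1.5-fold 3 members passed in Otx2 KI. The counts of other death and stress genes (9, 12 and 2) were 19, 24 and 9 at 1.5-fold. Between the mutant arrays that count was 1 with normexp and 6 with no filter on dim probes. All other settings run left these counts within 1.5 times. Of 175 member differences recomputed, 167 moved by less than their measurement error, 8 moved by more (6 with normexp and 2 with averaged probes) and none past 2-fold changed sign. Much of this was fixed in advance. The dim filters and the deposited table leave a log2 difference almost unchanged, and averaged probes could change only Bcl2l11. With normexp, which does act on dim spots, 6 of 22 moved. That setting also adds 50 to every spot, which by itself shrinks the differences of dim spots. A fall of dim members below 2-fold was therefore partly fixed in advance too, and normexp without the added constant was not run. Over all genes, normexp gave 130 higher and 281 lower in Otx2 KI (213 and 400 as reported), and 182 and 328 in Crx KO (313 and 550). Without the dim filter there were 498 and 906 in Otx2 KI, and 789 and 1075 in Crx KO. Between Otx2 KI and Crx KO they were 35 and 50 with normexp and 394 and 581 without the filter (107 and 102 as reported). No paired analysis was possible because there is 1 array per genotype, and for the same reason no array could be left out. Signal over background limits Ripk3, Bcl2l11, Casp8, Atf3 and Trp53.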
